A study of Mus musculus with 40 samples.

Results

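CXC chemokines are small secreted proteins that guide leukocytes through G protein-coupled receptors. Cxcl9, Cxcl10 and Cxcl11 are induced by interferons and bind Cxcr3 on T and NK cells, whereas Cxcl1, Cxcl2 and Cxcl3 are induced through NF-kB by IL-1, TNF and Toll-like receptors and attract neutrophils through Cxcr2. Cxcl12 is a mostly stromal ligand of Cxcr4, Cxcl13 attracts B cells and follicular T cells through Cxcr5, Cxcl14 has no agreed receptor, and Cxcl16 is a membrane-bound ligand of Cxcr6 that macrophages make. In gliomas the Cxcr3 ligands are studied mainly for the recruitment of T cells.

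The RNA levels of these 10 genes, chosen by name from 54513 rows, were examined in CD11b+ (myeloid) cells FACS-sorted from brain hemispheres in 3 experiments with 35 samples in all. In the first, C57BL/6 mice received murine GL261 tdTomato+luc+ glioma cells and, through intratumoral osmotic pumps, water as vehicle, the peptide 7aaRGD or the control peptide 7aaRAE, in which the RGD motif is changed to RAE (both at 2 mg/ml), and cells were sorted at 21 DPI. Naïve mice without a tumor formed a further group, and each group held 3 samples of 2 pooled animals. In the second, GL261-bearing mice were examined at 28 DPI, with 1 animal per sample, after vehicle (4 samples), 7aaRGD (4 samples), anti-PD-1 antibody at 10 mg/kg (3 samples) or 7aaRGD + anti-PD-1 (3 samples). Mice without anti-PD-1 received a control IgG in that experiment, and its animals are called nude in the labels but C57BL/6 in the methods. In the third, human U87-MG-RFP+ glioma cells were implanted into Athymic Nude-Foxn1nu mice, which lack mature T cells, and vehicle, 7aaRGD and 7aaRAE were compared at 21 DPI in 3 samples each of 2 pooled animals. All mice were males aged 10 to 12 weeks at the start, and each tumor model is 1 cell line.

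Levels are given as RPKM, reads scaled to the length of the gene and the size of the library, which can be compared between genes, after a constant of 2 in the deposited values was subtracted. The number of reads behind a value is unknown. All 5 genes fixed as markers of a CD11b+ sort were detected in every group, Itgam itself at 51.2 to 195 RPKM. In both GL261 experiments the differences between replicates nearly lacked 1 component: the least variable of their independent directions had 7.51% of the spread of the next one at 21 DPI and 7.68% at 28 DPI, against 75.3% for U87-MG. P-values in the GL261 experiments may therefore be too small. Of the 10 members, 7 reached the mean of 1 RPKM needed for a test in the GL261 experiments and 6 did so with U87-MG, where Cxcl11 did not. Cxcl1, Cxcl3 and Cxcl12 stayed under it in every experiment. The experiments were normalized separately, so levels from different experiments are set side by side and not tested.

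Of the 10 genes, 7 lie on chromosome 5 of mm10. Cxcl3 (chr5:90786103-90789600), Cxcl1 (chr5:90891241-90893115) and Cxcl2 (chr5:90903871-90905938) lie on the plus strand, Cxcl9 (chr5:92321347-92328079), Cxcl10 (chr5:92346638-92348889) and Cxcl11 (chr5:92359544-92365485) lie on the minus strand, and Cxcl13 (chr5:95956951-95961068) lies apart from both groups. Cxcl12 is at chr6:117168535-117181367, Cxcl16 at chr11:70453983-70459984 and Cxcl14 at chr13:56288643-56296551. Cxcl11 is annotated as a polymorphic pseudogene because the C57BL/6 allele has a frameshift and gives no functional protein, so only its RNA is described.

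The members are grouped here by their inducers, so the promoters of 4 members on which the results turn are shown. Each is the 250 bases before the RefSeq start (GRCm38.p6), which was given for 8 of the 10 members, with matches to the motifs below in capitals.
Cxcl2, chr5:90903649-90903898, plus strand: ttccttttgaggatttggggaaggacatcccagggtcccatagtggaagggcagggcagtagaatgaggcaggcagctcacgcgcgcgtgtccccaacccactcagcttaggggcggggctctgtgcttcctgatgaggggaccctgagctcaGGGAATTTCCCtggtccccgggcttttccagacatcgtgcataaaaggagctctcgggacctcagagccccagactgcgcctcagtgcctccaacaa
Cxcl10, chr5:92348890-92349139, minus strand: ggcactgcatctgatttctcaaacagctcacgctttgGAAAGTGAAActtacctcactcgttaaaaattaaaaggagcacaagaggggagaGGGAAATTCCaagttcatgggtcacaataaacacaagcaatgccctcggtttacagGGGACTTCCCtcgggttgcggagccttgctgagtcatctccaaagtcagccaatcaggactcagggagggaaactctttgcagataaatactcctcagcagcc
Cxcl9, chr5:92328080-92328329, minus strand: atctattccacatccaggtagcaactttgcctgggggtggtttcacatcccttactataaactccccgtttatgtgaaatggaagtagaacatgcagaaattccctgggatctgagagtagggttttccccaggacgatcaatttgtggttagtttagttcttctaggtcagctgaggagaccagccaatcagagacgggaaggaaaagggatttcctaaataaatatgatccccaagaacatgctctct
Cxcl13, chr5:95956689-95956938, plus strand: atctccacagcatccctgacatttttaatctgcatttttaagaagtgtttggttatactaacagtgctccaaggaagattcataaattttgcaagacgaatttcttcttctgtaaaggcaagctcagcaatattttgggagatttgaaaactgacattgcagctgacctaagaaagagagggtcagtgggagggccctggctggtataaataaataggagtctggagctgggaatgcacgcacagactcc

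The motifs searched on both strands were the kappa-B consensus of NF-kB, the interferon-stimulated response element (ISRE, GAAA, any 2 bases and GAAA again) and the gamma-activated site (GAS, TTCNNNGAA). They stood in 3.90%, 2.98% and 7.02% of the 32851 promoters of the same length. Cxcl2 held the kappa-B matches GGGAATTTCC and GGAATTTCCC, which overlap, starting 97 and 96 bases before its RefSeq start. Cxcl1 and Cxcl3 held the same overlapping pair, starting 71 and 73 bases before their RefSeq starts. These starts can differ from the gene positions listed above: the Cxcl2 window ends at 90903898, inside the gene as listed from 90903871. Cxcl10 held the kappa-B matches GGGAAATTCC and GGGACTTCCC at 159 and 103 bases and the ISRE match GAAAGTGAAA at 213 bases, none of which overlap. Cxcl14 held the ISRE match GAAACAGAAA at 172 bases and the GAS match TTCTGAGAA at 191 bases. The windows of Cxcl9, Cxcl12 and Cxcl13 held none of these letters. A match is a description of the sequence and does not show that a factor binds there.

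Cxcl16, Cxcl9 and Cxcl10 had the highest mean RPKM of the members in every tumor-bearing GL261 group. With vehicle at 21 DPI their means were 302 ± 36.5, 270 ± 94.1 and 238 ± 49.5 RPKM (SD, n = 3), and the samples of these 3 genes overlapped, so their order is within the spread. Cxcl2 followed at 11.1 ± 3.18 RPKM, Cxcl11 at 5.18 ± 2.69, Cxcl13 at 2.08 ± 0.469 and Cxcl14 at 1.49 ± 0.188 RPKM. Cxcl11 lay below Cxcl2 in every one of these samples, and the samples of Cxcl13 and Cxcl14 overlapped. With vehicle at 28 DPI, Cxcl16 at 276 ± 20.1 RPKM and Cxcl9 at 245 ± 79.9 RPKM (SD, n = 4) overlapped, and Cxcl10 at 53.7 ± 12.7 RPKM lay apart below them. U87-MG gave another order. Cxcl13 had the highest mean there, 162 ± 197 RPKM with vehicle (SD, n = 3), before Cxcl16 at 71.8 and Cxcl14 at 25.3 RPKM, while Cxcl9 stood at 2.21 RPKM. The samples of Cxcl13 and Cxcl16 overlapped. In naïve brain Cxcl16 alone held 81.0% of the summed mean RPKM of the 10 genes.

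**Figure D1:**
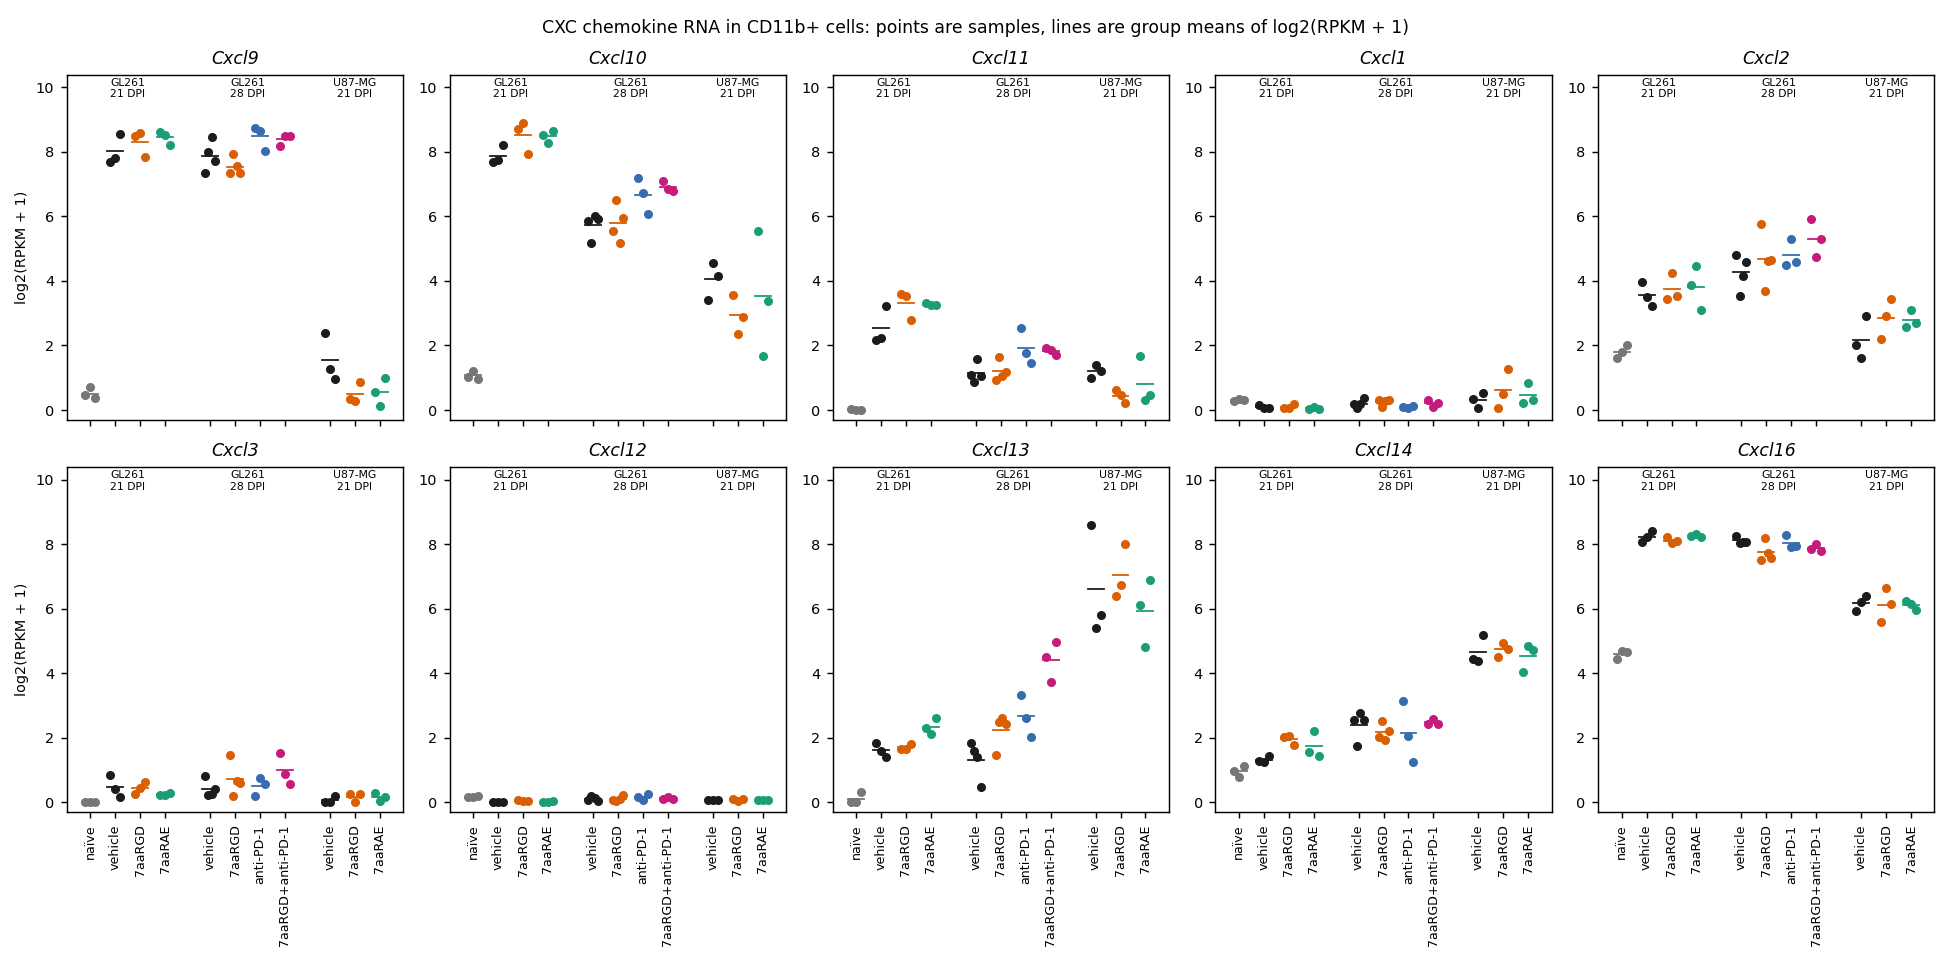
Level of each member in each group, 1 panel per gene, with log2(RPKM + 1) on the vertical axis; points are samples and lines are group means on that scale. In the GL261 panels of Cxcl9, Cxcl10 and Cxcl16 every tumor-bearing sample lies above the naïve samples, and Cxcl13 is highest in the U87-MG groups.

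The first comparison, vehicle-treated GL261-bearing against naïve hemispheres at 21 DPI, asked how the chemokines of CD11b+ cells differ between them. Vehicle mice also had the cell injection and a pump that delivered water into the tumor, and neither is described for naïve mice. Tumor, surgery and infusion therefore cannot be told apart in this comparison. All 7 members tested rose, Cxcl9 and Cxcl10 most. Cxcl9 was listed at 0.366, 0.652 and 0.281 RPKM in the naïve samples and at 206, 226 and 378 RPKM with vehicle. Cxcl10 was at 1.05, 1.31 and 0.960 RPKM against 207, 212 and 295 RPKM. These groups lay far apart. The log2 fold change, here and below on log2(RPKM + 1), which understates the change of low genes, was 7.52 (SE 0.22, adjusted p = 3.4e-08) for Cxcl9 and 6.81 (SE 0.14, adjusted p = 8.1e-09) for Cxcl10. Of all 9742 genes tested in limma, 34.7% rose and 35.6% were higher without overlap, so a rise as such was common. Cxcl9, Cxcl11, Cxcl13 and Cxcl14 had naïve means under 1 RPKM and were tested only because of their level with vehicle, so the count of 7 is no support by itself. Cxcl2, Cxcl10 and Cxcl16 reached 1 RPKM in naïve mice.

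Cxcl11, the third Cxcr3 ligand, was at most at 0.0117 RPKM in naïve samples and at 3.54, 3.72 and 8.28 RPKM with vehicle, a log2 fold change of 2.54 (SE 0.25, adjusted p = 2.3e-05). Cxcl16 was at 20.8, 24.6 and 24.1 RPKM in naïve samples and at 269, 295 and 341 RPKM with vehicle, a log2 fold change of 3.64 (SE 0.10, adjusted p = 2.9e-08). It was thus the only member with more than 5 RPKM in naïve brain. Cxcl2, the only tested member of the NF-kB-induced group, rose from 2.03, 2.48 and 3.03 RPKM to 14.6, 10.3 and 8.41 RPKM, a log2 fold change of 1.76 (SE 0.18, adjusted p = 3.4e-05). Cxcl13 rose from at most 0.248 RPKM to 2.57, 2.04 and 1.63 RPKM, by 1.51 on the log2 scale (SE 0.13, adjusted p = 1.3e-05). Cxcl14 was at 0.954, 0.724 and 1.17 RPKM in naïve samples and at 1.41, 1.35 and 1.70 RPKM with vehicle. Its small log2 fold change of 0.35 (SE 0.10) had an adjusted p of 0.0113, which became 0.0692 with all groups of the experiment in 1 fit. Among the members too low to test, Cxcl1 and Cxcl12 were higher in every naïve sample than in any vehicle sample, though at no more than 0.272 and 0.133 RPKM, and Cxcl3 was higher in every vehicle sample, at 0.114 to 0.813 RPKM.

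The median log2 fold change of all genes was -0.14 here and moved by 0.15 when samples were rescaled by median-of-ratios factors, a shift far below the changes of all members but Cxcl14. Of all genes, 82.9% passed in this comparison in either direction, 34.7% higher and 48.2% lower, against which the lists for both inducers are to be read. Of 30 tested genes of interferon signalling and response, 25 rose and 4 fell, with a median of 3.19. The largest rises were those of Gbp2 (6.72), a guanylate-binding protein, Irf7 (6.57), a transcription factor of the interferon response, Isg15 (6.03), a ubiquitin-like protein, and Oasl1 (5.71). Of 29 tested genes of NF-kB signalling and response, 22 rose and 3 fell, with a median of 1.05. Cd40 (4.97), a co-stimulatory receptor, Il1b (4.68), a cytokine, Bcl3 (4.21), an atypical I-kappa-B protein, and Ptgs2 (3.88), the inducible cyclooxygenase, had the largest rises.

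Cell types differed between the same samples. Summed markers of microglia were 16198 to 16764 RPKM in naïve samples and 1351 to 1971 RPKM with vehicle, where 9 of 9 fell, as did 48.2% of all genes. Monocyte markers were at 20.7 to 25.4 RPKM against 1353 to 2032 RPKM, and 6 of 6 rose. Neutrophil markers were at 418 to 540 RPKM against 131 to 263 RPKM, and 7 of 8 fell. In bulk samples fewer cells of a type and less RNA per cell cannot be told apart, and the part of these shifts in the chemokine differences was not tested.

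The peptides were next compared with vehicle in GL261 gliomas at 21 DPI; both comparisons share the vehicle samples. No member passed the test with 7aaRGD, where 0.148% of 9454 genes did (14 genes, of which 13 were higher, and 1283 at an unadjusted p under 0.05). Cxcl10 was at 207, 212 and 295 RPKM with vehicle, 418, 473 and 245 RPKM with 7aaRGD and 371, 310 and 401 RPKM with 7aaRAE. The 7aaRGD samples overlapped those of vehicle, with a log2 fold change of 0.63 (SE 0.23, adjusted p = 0.296). The 7aaRAE samples lay above vehicle without overlap, at 0.61 (SE 0.23, adjusted p = 0.718). Cxcl14 was at 3.04, 3.16 and 2.42 RPKM with 7aaRGD, above the 1.35 to 1.70 RPKM of vehicle without overlap. Its log2 fold change was 0.64 (SE 0.18, adjusted p = 0.21), and 12.5% of all genes were higher without overlap in that comparison. Cxcl11 was at 11.2, 10.6 and 5.94 RPKM with 7aaRGD and overlapped vehicle. Without vehicle replicate 3, whose 8.28 RPKM was the highest of its group, Cxcl11 passed the test.

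With 7aaRAE no member and 0% of all genes passed the limma test (603 genes at an unadjusted p under 0.05). Cxcl11 was at 8.91, 8.48 and 8.56 RPKM with 7aaRAE against 3.54, 3.72 and 8.28 RPKM with vehicle, a log2 fold change of 0.72 (SE 0.28, adjusted p = 0.718). Cxcl13 was at 3.92, 3.29 and 5.15 RPKM against 2.57, 2.04 and 1.63 RPKM, a log2 fold change of 0.73 (SE 0.14, adjusted p = 0.718). These 2 genes and Cxcl10 were higher without overlap, as were 6.13% of all genes. The other tested members overlapped vehicle: Cxcl9 was at 296 to 392 RPKM with 7aaRAE, and 230 to 387 with 7aaRGD, against 206 to 378 RPKM, and Cxcl2 at 7.53 to 21.2 and 9.98 to 17.9 against 8.41 to 14.6 RPKM.

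7aaRGD and 7aaRAE, which were given at the same dose and differ by the change of the RGD motif, were compared directly in 7 members. None passed the test, nor did any gene (0%, with 521 at an unadjusted p under 0.05). The log2 difference, 7aaRGD minus 7aaRAE, was 0.02 for Cxcl10 (95% interval -0.50 to 0.55, adjusted p = 0.996), -0.14 for Cxcl9 (-0.71 to 0.43), 0.04 for Cxcl11 (-0.59 to 0.67), -0.08 for Cxcl2 (-0.84 to 0.68) and 0.22 for Cxcl14 (-0.18 to 0.62). The intervals thus leave room for differences of up to 0.84 in size for these genes. Cxcl13 was at 2.13, 2.16 and 2.46 RPKM with 7aaRGD and 3.92, 3.29 and 5.15 RPKM with 7aaRAE, without overlap. Its difference was -0.64 (SE 0.14, 95% interval -0.95 to -0.33, adjusted p = 0.408 over all genes). Cxcl16 was at 294, 260 and 273 RPKM with 7aaRGD, just below the 304, 317 and 296 RPKM with 7aaRAE, a difference of -0.15 (SE 0.09, 95% interval -0.35 to 0.06, adjusted p = 0.992). Of all genes, 3.54% were lower without overlap in this comparison. No gene of the interferon or NF-kB list passed in any of these peptide comparisons, in which at most 0.148% of all genes did. Against vehicle, 10 of 29 NF-kB and 1 of 31 interferon genes were higher without overlap with 7aaRAE (6.13% of all genes). With 7aaRGD 4 and 6 were (12.5% of all genes).

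At 28 DPI the question was whether anti-PD-1, 7aaRGD or both change the chemokines of GL261-bearing brain. The 3 treatments share the 4 vehicle samples. Cxcl10 was at 56.8, 35.2, 63.7 and 59.1 RPKM with vehicle and at 45.5, 90.7, 35.3 and 60.5 RPKM with 7aaRGD. It was at 145, 104 and 67.0 RPKM with anti-PD-1 and at 136, 116 and 111 RPKM with 7aaRGD + anti-PD-1. The 7aaRGD samples overlapped those of vehicle, whereas every sample with anti-PD-1, alone or combined, lay above it. With 7aaRGD alone no member passed (0.646% of 9750 genes did, 63 genes), and the log2 fold change of Cxcl10 was 0.06 (SE 0.28, adjusted p = 0.948). Cxcl2 ranged from 11.8 to 53.1 RPKM with 7aaRGD and from 21.6 to 38.2 with anti-PD-1, and Cxcl16 from 180 to 291 and from 238 to 313 RPKM, all overlapping vehicle as given below. Cxcl14 stayed between 1.37 and 7.80 RPKM over all 28 DPI samples.

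With anti-PD-1 alone 3 members rose: Cxcl10, Cxcl11 and Cxcl13. Of all genes, 10.9% rose, and 15.4% were higher without overlap. The log2 fold change of Cxcl10 was 0.92 (SE 0.30, adjusted p = 0.0426). Cxcl13 was at 2.57, 1.99, 1.62 and 0.382 RPKM with vehicle and at 9.06, 5.15 and 3.07 RPKM with anti-PD-1, with no overlap and a log2 fold change of 1.34 (SE 0.40, adjusted p = 0.0271). Cxcl11 was at 1.13, 0.817, 1.97 and 1.08 RPKM with vehicle and at 4.79, 2.37 and 1.72 RPKM with anti-PD-1, a log2 fold change of 0.76 (SE 0.24, adjusted p = 0.0326), although its groups overlapped. These calls depended on single animals. None of the 3 genes passed without vehicle replicate 4, anti-PD-1 replicate 1 or anti-PD-1 replicate 2, only Cxcl13 passed without vehicle replicate 1 or 2, and 4 members, Cxcl9 among them, passed without vehicle replicate 3 or anti-PD-1 replicate 3. None passed without a filter on low values, and Cxcl11 did not with only the groups compared in the fit (adjusted p = 0.0687). Cxcl9 was at 163, 255, 350 and 210 RPKM with vehicle and 432, 402 and 263 RPKM with anti-PD-1, which overlap.

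With 7aaRGD + anti-PD-1 the same 3 members rose against vehicle. Cxcl13 had the largest log2 fold change of the members, at 21.8, 12.2 and 30.1 RPKM against at most 2.57 RPKM with vehicle, a change of 3.08 (SE 0.40, adjusted p = 5.7e-05). The log2 fold change of Cxcl10 was 1.18 (SE 0.30, adjusted p = 0.0068). Both passed under every alternative tried. Cxcl11 was at 2.77, 2.59 and 2.29 RPKM, above the vehicle samples without overlap, at 0.68 (SE 0.24, adjusted p = 0.0321). Its adjusted p rose to between 0.0558 and 0.0951 without vehicle replicate 1, 2 or 4 or without any 1 of the 3 combination samples, and it was 0.058 with no filter on low values. Of all genes, 17.5% rose in this comparison and 20% were higher without overlap; 40.5% of the genes that passed were higher, or 50.9% after rescaling by median-of-ratios factors. Cxcl16 was at 306, 263, 268 and 269 RPKM with vehicle and at 227, 254 and 220 RPKM with the combination. It was lower without overlap, as were 28.8% of all genes, with a log2 fold change of -0.24 (SE 0.14, adjusted p = 0.197). With only vehicle and the combination in the fit, Cxcl16 and Cxcl2 passed as well. Cxcl2 was at 27.2, 10.7, 17.0 and 22.8 RPKM with vehicle and at 59.0, 25.6 and 38.0 RPKM with the combination, which overlap (adjusted p = 0.066). Cxcl9 did not pass in the main fit, at 163 to 350 RPKM with vehicle and 289 to 362 RPKM with the combination, which overlap (adjusted p = 0.0965).

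**Figure D2:**
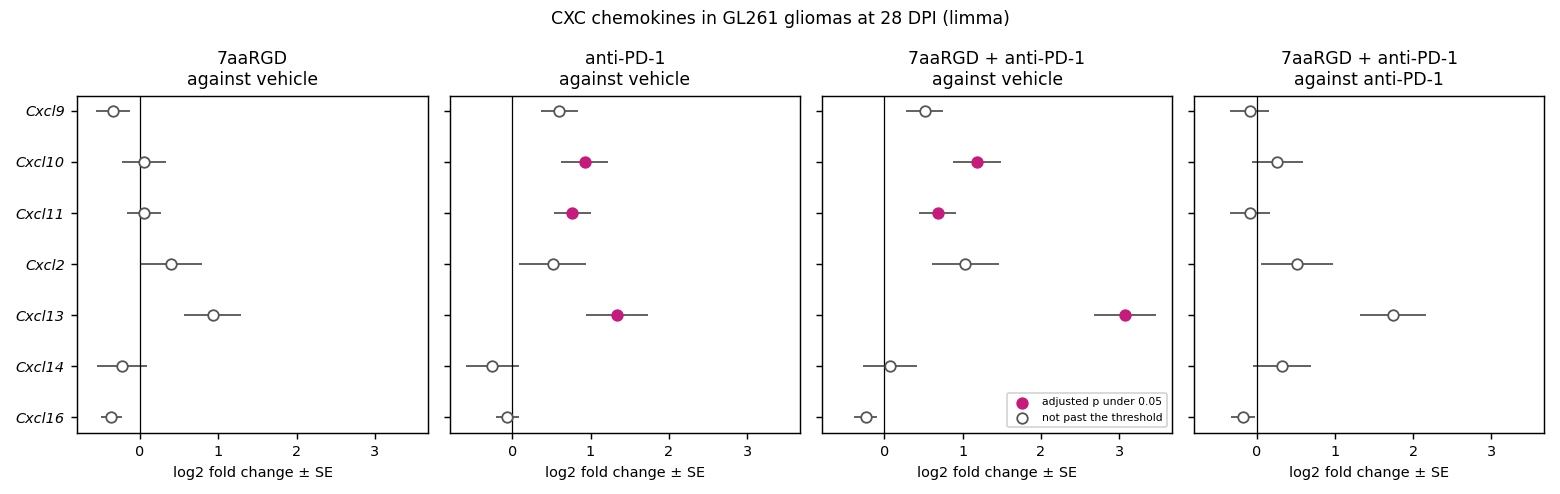
Log2 fold change, on log2(RPKM + 1), of the 7 tested members in 4 comparisons at 28 DPI, with bars of 1 SE; filled points have an adjusted p under 0.05. Cxcl10, Cxcl11 and Cxcl13 are filled for anti-PD-1 and for the combination against vehicle, and no point is filled for 7aaRGD against vehicle or for the combination against anti-PD-1.

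Against 7aaRGD alone, the combination raised Cxcl13, Cxcl10 and Cxcl9, while 13.1% of all genes rose (35.7% of the genes that passed were higher, or 51% after rescaling). Cxcl9 was at 160, 242, 188 and 162 RPKM with 7aaRGD and at 289, 362 and 361 RPKM with the combination, a log2 fold change of 0.85 (SE 0.24, adjusted p = 0.013). Cxcl13 was at 1.75, 4.65, 5.07 and 4.40 RPKM with 7aaRGD, and its log2 fold change was 2.15 (SE 0.40, adjusted p = 0.0012). That of Cxcl10 was 1.13 (SE 0.30, adjusted p = 0.0113). The groups of these 3 genes did not overlap, and all 3 passed under every alternative tried. Cxcl11 was at 0.892, 2.13, 1.07 and 1.28 RPKM with 7aaRGD, also below the combination without overlap (14.6% of all genes were higher without overlap), at 0.63 (SE 0.24, adjusted p = 0.0523). It passed under 4 alternatives: after rescaling by median-of-ratios factors (adjusted p = 0.0367), with only the groups compared in the fit (0.0209), with a pseudocount of 0.1 (0.0459) and without 7aaRGD replicate 2 (0.0216).

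Between the combination and anti-PD-1 alone no member passed the test, and 0.041% of all genes did (4 genes, of which 50% were higher, or 75% after rescaling). Cxcl13 was higher in all 3 combination samples than in the 3 anti-PD-1 samples, at 12.2 to 30.1 against 3.07 to 9.06 RPKM. Its log2 fold change was 1.74 (SE 0.42, adjusted p = 0.0895, or 0.0614 to 0.288 under the alternatives), and 6.23% of all genes were higher without overlap. Cxcl10 differed by 0.26 (SE 0.32, adjusted p = 0.738), with overlapping samples. The interaction, which asks whether 7aaRGD acts differently with anti-PD-1 than without it, passed in no member and in 0% of all genes (794 at an unadjusted p under 0.05). It was 0.20 for Cxcl10 (SE 0.43, adjusted p = 0.921) and 0.81 for Cxcl13 (SE 0.56, adjusted p = 0.729).

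Many signalling and response genes of both inducers rose in the same comparisons. The share of all genes that rose was 10.9% with anti-PD-1, 17.5% with the combination against vehicle and 13.1% with the combination against 7aaRGD. With anti-PD-1, 23 of 30 interferon genes rose and 1, the receptor chain Ifngr1, fell, with a median log2 fold change of 0.64 against -0.005 for all genes. With the combination 25 rose and Ifngr1 fell, with a median of 0.71 against -0.05. Among the largest rises were those of Gbp5 (1.71), a guanylate-binding protein, Igtp (1.56), an interferon-gamma-induced GTPase, and Gbp2 (1.53). Of 28 NF-kB genes, 10 rose with anti-PD-1 (median 0.34) and 17 with the combination (median 0.63), where Ptgs2 led before the cytokines Tnf (1.51) and Il1b (1.40) and the NF-kB subunit Nfkb2 (1.16). None fell in either. Against 7aaRGD, the combination raised 20 of the interferon and 14 of the NF-kB genes. No gene of either list passed for 7aaRGD alone or for the combination against anti-PD-1.

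Markers of other cells differed between these groups too. Against vehicle, 10.9% of all genes rose and 12.2% fell with anti-PD-1, and 17.5% rose and 25.7% fell with the combination. The summed dendritic cell markers were at 12.1 to 23.8 RPKM with vehicle, 15.3 to 34.4 with 7aaRGD, 27.4 to 53.5 with anti-PD-1 and 65.8 to 75.7 RPKM with the combination. Of the 8 markers, 4 were tested, Cd209a, Ccl22, Ccr7 and Fscn1, and all 4 rose with anti-PD-1 and with the combination. Fscn1 had fallen from naïve to vehicle at 21 DPI, as the microglia markers did, and the list summed to 439 to 467 RPKM in naïve samples. Zbtb46 and Clec9a were under 0.5 RPKM with vehicle and with 7aaRGD. Xcr1, which defines conventional type 1 dendritic cells, was under 0.5 RPKM throughout. The NK cell markers summed to 2.64 to 12.2 RPKM with vehicle, 1.77 to 11.3 with 7aaRGD, 2.94 to 72.2 with anti-PD-1 and 28.1 to 88.1 RPKM with the combination, where 5 of 6 rose. T cell markers summed to at most 2.26 RPKM with vehicle or 7aaRGD, 1.30 to 6.83 with anti-PD-1 and 4.09 to 7.56 RPKM with the combination, with Cd3e and Cd3g under 0.5 RPKM. B cell markers summed to 5.40 to 9.44 RPKM over all samples, with Cd79a and Ms4a1 under 0.5 RPKM. Monocyte markers were at 124 to 289 RPKM with vehicle, 115 to 823 with 7aaRGD, 307 to 853 with anti-PD-1 and 301 to 528 RPKM with the combination, and 5 of 6 rose with anti-PD-1 and with the combination. Oligodendrocyte lineage markers summed to 26.8 to 41.3 RPKM with vehicle, 26.2 to 29.6 with 7aaRGD, 16.5 to 24.3 with anti-PD-1 and 17.1 to 18.7 RPKM with the combination, with Pdgfra and Mog under 0.5 RPKM. Of 5 tested, 3 fell with anti-PD-1 and with the combination, Sox10, Olig1 and Olig2 in both. Endothelial markers summed to 3.14 to 6.09 RPKM with vehicle, 4.03 to 7.21 with 7aaRGD, 5.69 to 12.9 with anti-PD-1 and 8.42 to 13.6 RPKM with the combination, with Esam and Tek under 0.5 RPKM, and both tested ones, Flt1 and Kdr, rose with anti-PD-1 and with the combination. Of 9 microglia markers, 6 rose with the combination. The part of these cells in the levels of Cxcl9, Cxcl10, Cxcl11 and Cxcl13 was not tested.

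In U87-MG gliomas, neither peptide moved any member past the test. With 7aaRGD 0% of 9676 genes passed in limma (365 at an unadjusted p under 0.05), and with 7aaRAE 0.0103% did, 1 gene. Cxcl10 was at 9.73, 22.4 and 17.0 RPKM with vehicle, 10.9, 4.11 and 6.32 RPKM with 7aaRGD and 45.6, 2.19 and 9.39 RPKM with 7aaRAE. All groups overlapped, and the 7aaRAE samples alone spanned both other groups. The log2 fold change was -1.11 (SE 0.81, adjusted p = 0.941) for 7aaRGD and -0.52 (SE 0.81, adjusted p = 0.849) for 7aaRAE. Cxcl9 was at 4.26, 1.43 and 0.937 RPKM with vehicle and at 0.260, 0.204 and 0.838 RPKM with 7aaRGD, without overlap. Its log2 fold change was -1.05 (SE 0.37, adjusted p = 0.941), and 6.4% of all genes were lower without overlap. Cxcl9 reached the level needed for a test only through vehicle, whose highest sample carries its mean of 2.21 RPKM, so its lack of overlap is no support by itself. The untested Cxcl11 also lay lower with 7aaRGD, at 0.175 to 0.547 RPKM against 0.996 to 1.62 RPKM with vehicle. The NK cell markers summed to 8.49 to 24.5 RPKM with vehicle, 1.69 to 8.24 with 7aaRGD and 0.315 to 2.41 RPKM with 7aaRAE, and their part was not tested.

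Cxcl13, which had the highest mean of the members in each U87-MG group, ranged widely within each group, and the groups overlapped. With vehicle its median of 54.7 RPKM lay below the 72.3 RPKM of Cxcl16, and with 7aaRAE the means were 70.8 and 68.9 RPKM. It was at 389, 41.3 and 54.7 RPKM with vehicle, 83.8, 104 and 256 RPKM with 7aaRGD and 67.6, 27.2 and 118 RPKM with 7aaRAE. It made up 44.3% ± 30.8, 53.9% ± 13.8 and 35.1% ± 16.8 of the summed RPKM of the 10 genes in these groups (SD, n = 3), and at most 3.92% in any GL261 or naïve sample. The log2 difference of 7aaRGD minus 7aaRAE was 1.11 for Cxcl13 (95% interval -0.80 to 3.02), -0.60 for Cxcl10 (-2.43 to 1.23, SE 0.81), -0.06 for Cxcl9 (-0.89 to 0.77) and 0.08 for Cxcl2 (-0.75 to 0.91). No member and 0% of all genes passed between the peptides (328 at an unadjusted p under 0.05), and the intervals leave room for differences of severalfold. Cxcl14, at 15.3 to 35.3 RPKM, and Cxcl16, at 47.1 to 99.5 RPKM, overlapped among all groups, and Cxcl2 was at 2.07 to 9.87 RPKM over all samples.

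Summed over the interferon-induced trio, Cxcl9, Cxcl10 and Cxcl11, the level was 1.25 to 1.96 RPKM in naïve samples. At 21 DPI it was 416 to 681 RPKM with vehicle, 481 to 871 with 7aaRGD and 687 to 772 with 7aaRAE. At 28 DPI it was 221 to 416 RPKM with vehicle, 207 to 335 with 7aaRGD, 332 to 581 with anti-PD-1 and 428 to 480 with the combination. In U87-MG it lay between 2.52 and 48.2 RPKM over all samples, below every GL261 tumor sample. The NF-kB-induced trio, Cxcl1, Cxcl2 and Cxcl3, summed to 2.24 to 3.25 RPKM in naïve samples. At 21 DPI it summed to 8.56 to 15.5 RPKM with vehicle, 10.2 to 18.3 with 7aaRGD and 7.76 to 21.5 with 7aaRAE. At 28 DPI it summed to 10.9 to 28.1 RPKM with vehicle, up to 55.1 with 7aaRGD (median 24.6), 21.8 to 39.0 with anti-PD-1 and 26.5 to 61.1 with the combination, all of which overlap, and in U87-MG to 2.07 to 11.5 RPKM. The interferon-induced sum was the smaller of the pair in all naïve samples, at 0.383 to 0.714 of the NF-kB-induced one. It was the larger in every GL261 tumor sample, by 3.75 to 91.0 times. In U87-MG the ratio ran from 0.303 to 12.3 and crossed 1. Most of the NF-kB-induced sum was Cxcl2, since Cxcl1 and Cxcl3 did not exceed 1.40 and 1.90 RPKM in any sample. Cxcl12 did not exceed 0.187 RPKM.

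**Figure D3:**
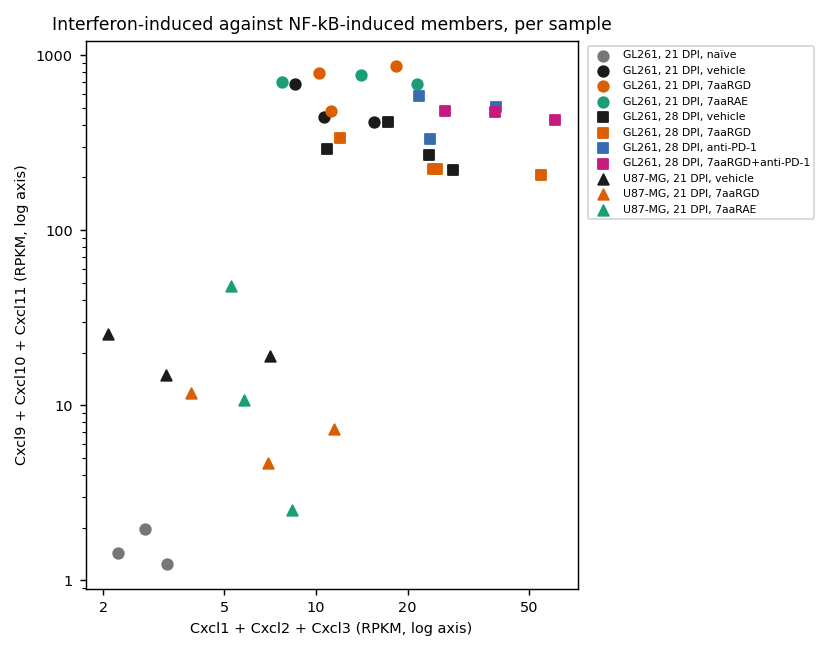
Summed RPKM of Cxcl1, Cxcl2 and Cxcl3 (horizontal, log axis) against that of Cxcl9, Cxcl10 and Cxcl11 (vertical, log axis), 1 point per sample, with a shape for each experiment and a colour for each treatment. Naïve samples lie lowest on the vertical axis, at 1.25 to 1.96 RPKM, U87-MG samples at 2.52 to 48.2 RPKM and GL261 tumor samples at 207 to 871 RPKM.

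The balance within the interferon-induced trio also differed between the experiments. The ratio of Cxcl9 to Cxcl10 RPKM was 0.293 to 0.497 in naïve samples and 0.739 to 1.28 over the tumor-bearing GL261 samples of 21 DPI. It was 2.12 to 7.25 over the samples of 28 DPI and 0.0103 to 0.438 in U87-MG. At 28 DPI it was 2.87 to 7.25 with vehicle and 2.12 to 3.27 with the combination, which overlap. The GL261 experiments differ in day, in animals per sample and in control antibody, and the U87-MG experiment has another cell line and mouse strain. Each experiment was also normalized separately, so the ratios are set side by side without a test. Cxcl9 was under 1 RPKM in every naïve sample and in every U87-MG sample with 7aaRGD or 7aaRAE, so the ratios there rest on low values.

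**Figure D4:**
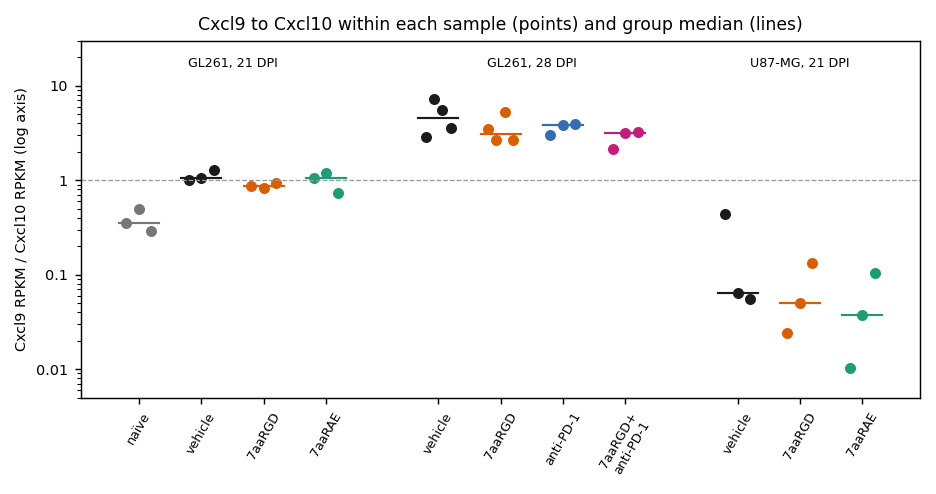
Ratio of Cxcl9 to Cxcl10 RPKM in each sample (log axis) by group, with lines at group medians. The ratio is above 2 in every 28 DPI sample and between 0.739 and 1.28 in the tumor-bearing GL261 samples of 21 DPI. It is below 0.5 in naïve and U87-MG samples, where Cxcl9 did not exceed 4.26 RPKM.

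Over the 14 samples of 28 DPI, which share a normalization and hold 4 treatments, the genes whose log2 levels followed Cxcl10 most closely of all 9750 were Slx4 (r = 0.969), a nuclease scaffold, Ifit1 (0.969), an interferon-induced RNA-binding protein, and Htr7 (0.968), a serotonin receptor. Cxcl11 had r = 0.922 with Cxcl10 and Cxcl13 had 0.702, while Cxcl2 had 0.327. For Cxcl9 they were Cd52 (0.903), a leukocyte surface glycopeptide, Map4k1 (0.898), a kinase of haematopoietic cells, and Lst1 (0.887), with Cxcl11 at 0.811, Cxcl10 at 0.715 and Cxcl2 at -0.021. For Cxcl2 they were Hist3h2a (0.913), a histone, Hdc (0.896), the enzyme that makes histamine, and Ier3 (0.865), an immediate early gene. These correlations describe samples of which the treatment groups are part.

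Of the receptors, Cxcr4 alone was abundant. It rose from 6.69 to 7.25 RPKM in naïve samples to 254 to 267 RPKM with vehicle at 21 DPI, a log2 fold change of 5.03 (SE 0.05, adjusted p = 2.7e-09), and was at 18.1 to 294 RPKM over all tumor samples. Its own ligand Cxcl12 was among the lowest members, as given above. Cxcr2, the receptor of the NF-kB-induced trio, was at 0.539 to 8.87 RPKM and Cxcr3, that of the interferon-induced trio, at 0.185 to 5.69 RPKM. Cxcr5 and Cxcr6, which bind Cxcl13 and Cxcl16, did not exceed 1.19 and 1.07 RPKM. Among the CXC ligands outside the 10, Pf4 was at 2.12 to 45.6 RPKM, Ppbp did not exceed 0.650 RPKM, and Cxcl15 and Cxcl17 were listed at 0.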

How the data were processed

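Stranded poly-A RNA-seq of CD11b+ cells was analysed in 35 of 40 labelled samples; 5 samples (3 naïve nude mice and 1 each of anti-PD-1 and the combination) are not analysed here. The submitters' processing notes name Trimmomatic, STAR and HTSeq 0.11.1, and reads were aligned to mm10; the gene annotation is not given in the sources used here. The authors deposited RPKM values plus a constant of 2 in 3 tables, altered after normalization in a way that the methods do not describe: 3.13% to 8.78% of a sample's values lay under the constant, and reads could not be recovered, so no count test was run and the depth is unknown. The constant was subtracted, and differences were tested with limma 3.58.1 (R 4.3.3; eBayes with trend, 2-sided) on log2(RPKM + 1), over genes whose mean over the fitted samples reached 1 RPKM, with Benjamini-Hochberg adjustment over all of them and a threshold of 0.05. Vehicle and naïve were fitted alone, and otherwise all tumor-bearing groups of a table together. Protein-coding genes were planned. Polymorphic pseudogenes were added after the files were seen, so that Cxcl11 could be tested, and protein-coding genes alone are an alternative. Gene names, types and positions came from GENCODE M21, of the same build, for 53904 rows (98.9%).

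Members, gene lists and tests were chosen with earlier results of these data known. The text gives the fold change of a member that passed or whose groups did not overlap, and of Cxcl10 always, and up to 4 genes of a list with the largest changes past the threshold, some of which are not reported here; of the receptors, Cxcr4 was the only one to pass against naïve. P-values set a difference against the spread between samples within groups, pooled over the groups fitted and drawn towards a trend over all genes. At 21 DPI that spread is between pools of 2 animals and not between single animals. Alternatives were pseudocounts of 0.1 and 5, no filter and one of 5 RPKM, median-of-ratios rescaling, values under the constant set to 0, all named genes, other sets of groups in a fit, a replicate block and leaving out each sample. The procedure was tested on simulated data with independent noise in each sample. Such data do not hold the nearly missing component of the GL261 replicates, so they cannot show its effect on the p-values.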

Additional observations from a re-analysis of the deposited data

Results flagged for a closer look

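Over the 10 members and the 2 groups of 4 samples, 2 of 20 sets of values had 1 sample far from the others; chance gives this in about 1 in 20. For Cxcl16 with vehicle at 28 DPI, the highest sample was at 306 RPKM and the next at 269 RPKM, a gap of 0.861 of the group's range. For Cxcl1 with 7aaRGD at 28 DPI, the lowest sample was at 0.0637 RPKM and the next at 0.208 RPKM, a gap of 0.840 of the range.

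Among members tested in both experiments, there were 3 cases where all treated samples lay above the vehicle mean RPKM in GL261 gliomas and all lay below it in U87-MG gliomas at 21 DPI. Cxcl11 with 7aaRGD had the same pattern but was not tested with U87-MG. The log2 fold change in GL261 minus that in U87-MG was 1.75 for Cxcl10 with 7aaRGD, 1.42 for Cxcl9 with 7aaRAE and 1.40 for Cxcl13 with 7aaRAE. For Cxcl10 in GL261, the lowest 7aaRGD sample, at 245 RPKM, lay just above the vehicle mean of 238 RPKM. Cxcl9 reached the level needed for a test with U87-MG only through vehicle (mean 2.21 RPKM, against 0.511 with 7aaRAE). Its place below that mean is therefore no support by itself. The case of Cxcl13 rests on 1 U87-MG vehicle sample at 389 RPKM: against the vehicle mean of log2(RPKM + 1), the 7aaRAE sample at 118 RPKM lay above and not below. These differences were not tested, because the 2 experiments were normalized separately.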

How the results depend on the processing

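Of 549 fold changes of single members recomputed under the alternatives, 504 kept their direction and their side of the threshold, 30 no longer passed, 5 came to pass and 10 reversed. Counts of members past the threshold, with their main value first, moved as follows. Against naïve 7 became 4 with a filter of 5 RPKM. With 7aaRGD at 21 DPI 0 became 0 to 1 on leaving out 1 sample. With anti-PD-1 3 became 0 with no filter, 0 with the replicate block and 0 to 4 on leaving out 1 sample. With the combination against vehicle 3 became 5 with only the groups compared in the fit and 2 to 4 on leaving out 1 sample; Cxcl11 no longer passed there with no filter (adjusted p = 0.058) or with the replicate block (0.0781). The fold change of Cxcl10 reversed for 7aaRGD against 7aaRAE at 21 DPI (-0.0020 after rescaling, -0.16 to 0.31 on leaving out 1 sample) and, on leaving out 1 sample, for 7aaRGD at 28 DPI (-0.18 to 0.26), the combination against anti-PD-1 (-0.026 to 0.52), the interaction (-0.083 to 0.47), 7aaRAE with U87-MG (-1.52 to 0.41) and 7aaRGD against 7aaRAE with U87-MG (-1.53 to 0.41). Where replicate numbers are shared, deviations from group means of same-numbered samples correlated by more than 0.1 in 1 of 9 pairs at 21 DPI and 3 of 19 at 28 DPI. The correlations ran from -0.77 to 0.12 and from -0.50 to 0.37, and the numbers were not taken to pair samples. Because 1 component nearly lacked from the differences between replicates, this check cannot decide whether they do. For U87-MG no paired analysis was possible, because its columns carry no replicate numbers. Testing protein-coding genes alone, an alternative chosen after seeing the data, took out Cxcl11 and left 6, 2 and 2 members past the threshold against naïve, with anti-PD-1 and with the combination against vehicle. Counts over all genes moved by more than 1.5 times in these comparisons: against naïve from 8073 to 5291 with a filter of 5 RPKM, with 7aaRGD from 14 to 0 to 129 at 21 DPI and from 63 to 0 to 93 at 28 DPI, with anti-PD-1 from 2251 to 1363 without anti-PD-1 replicate 2, and with the combination against anti-PD-1 from 4 to 0 to 26. Comparisons with 0 or 1 gene went to at most 32. The unknown depth limits what can be said of members under 1 RPKM, and the cause of the moves was not tested.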
